A study of Mus musculus with 6 samples.

Results

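Schwann cell myelination regulators are the transcription factors and signalling genes that drive a Schwann cell to wrap an axon in myelin. They were taken here as 9 named genes, looked up by Ensembl identifier: the transcription factors Sox10, Pou3f1 and Egr2, the corepressors Nab1 and Nab2, the growth factor Nrg1, its receptors Erbb2 and Erbb3, and the adhesion G protein-coupled receptor Adgrg6. All 9 were among the 54532 gene rows of the table. All 9 also passed the filter on low values, which kept 18410 genes. They were measured by bulk RNA sequencing of whole dorsal root ganglia, which lie next to the spinal cord and hold the cell bodies of sensory neurons and their glia, from C57BL/6 mice aged 8 weeks. The Hdac2 cKO group (3 libraries) had the genotype Adv-Cre+/hdac2-flop++, that is, Cre recombinase driven by the promoter of Avil (Advillin), a gene of primary sensory neurons, and floxed alleles of Hdac2, a histone deacetylase. The WT group (3 libraries) held littermates labelled hdac2-flop++ without Cre, so both groups carried floxed Hdac2, and Cre itself was present in the Hdac2 cKO group only. The labels give no sex and do not say whether a library came from 1 mouse or several.

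Schwann cells are the glia of peripheral nerve. SOX10 sets and keeps their identity and is also present in satellite glia, the cells that wrap sensory neuron bodies. POU3F1 (also called OCT6 or SCIP) and SOX10 switch on Egr2 (Krox20), the factor that turns on the myelin genes, and NAB1 and NAB2 bind EGR proteins and are needed for normal myelination. The axon tells the Schwann cell to begin through neuregulin 1, read by a receptor pair of ERBB2, which binds no ligand itself, and ERBB3, which binds neuregulin but has little kinase activity. ADGRG6 (GPR126) raises cyclic AMP in the Schwann cell and is required for Egr2 to come on. Histone deacetylases 1 and 2 act within Schwann cells in this programme, whereas Cre in this study was driven from a sensory neuron promoter.

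The windows before Egr2 and Nab2 are printed because these are the genes of the EGR axis whose levels the account turns on most. They are the 250 bases before the RefSeq start (GRCm38.p6, the assembly of mm10), 5′ to 3′ on the gene's strand. The first is Egr2 at chr10:67537619-67537868, plus strand, and the second is Nab2 at chr10:127666704-127666953, minus strand. Egr2 has 5 RefSeq starts, and the one nearest the start of the first listed GENCODE coding transcript was used. That window lies inside the annotated span of Egr2, and windows before its other RefSeq starts are not shown. Capitals mark a match to the octamer ATGCAAAT, a sequence that POU factors can bind, or to the EGR motif GCGNGGGCG.
Egr2: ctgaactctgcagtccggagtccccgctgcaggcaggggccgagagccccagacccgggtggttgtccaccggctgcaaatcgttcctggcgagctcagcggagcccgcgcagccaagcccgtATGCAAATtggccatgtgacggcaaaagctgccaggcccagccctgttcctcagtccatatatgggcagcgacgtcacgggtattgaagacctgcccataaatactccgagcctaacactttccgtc
Nab2: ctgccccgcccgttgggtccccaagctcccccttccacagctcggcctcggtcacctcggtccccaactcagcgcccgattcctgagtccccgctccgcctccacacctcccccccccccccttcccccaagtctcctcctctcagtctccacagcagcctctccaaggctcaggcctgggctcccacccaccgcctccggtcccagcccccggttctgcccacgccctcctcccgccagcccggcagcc
The octamer stood once in the Egr2 window, 127 to 120 bases before the start. Both strands were searched, and 1.60% of the 32851 windows of the same length held an octamer. The EGR motif, whose GC-rich letters overlap those of other GC-box factors, stood in neither window. It occurred in 4.70% of all windows, and 3 times in the window before the RefSeq start of Nab1. The GENCODE start of Nab1 lies 231 bases upstream of that RefSeq start, so these 3 matches lie downstream of the GENCODE start. The SOX motif ACAAAG, held by 16.5% of all windows, stood in none of the 5 member windows found (Egr2, Nab1, Nab2, Erbb2 and Adgrg6). These matches describe letters only.

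Values below are read counts divided by 1 size factor per library, as the authors deposited them (normalised read counts). Library totals ran from 27787407 to 42070531 reads in Hdac2 cKO and from 18943595 to 31338593 in WT. A log2 fold change is the mean log2 (value + 1) in Hdac2 cKO less that in WT, a scale that understates changes of low genes. Fold changes come from limma fitted over all 18410 genes, with p-values adjusted by Benjamini-Hochberg and a threshold of 0.05. Hdac2 itself (chromosome 10, 36974544 to 37001889) stood at 499, 372 and 535 in Hdac2 cKO 1, 2 and 3, against 2816, 1715 and 3498 in WT 1, 2 and 3. WT 3 stood apart from the other 5 libraries: its median correlation with them over all genes was 0.836, against 0.936 to 0.957 for the others. WT 2 had an even number of reads in 42.4% of genes with 1 to 20 reads, against 60.2 to 64.4% in the other libraries. Transcripts of 4 Y-linked genes summed to 3993 in Hdac2 cKO 2, to 3649.5 in WT 2 and to 5698 in WT 3, and to at most 7.06 in the other 3 libraries.

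None of the 9 regulators passed limma's test. Hdac2, the deleted gene, did not pass it either (log2 fold change -2.47, SE 0.31; limma adjusted p = 0.927). A member that did not pass may therefore still differ between the groups. The background was also empty: 0% of the 18410 genes tested passed, with 341 genes (1.85%) at an unadjusted p under 0.05, among them Egr2. DESeq2 called 28 genes (0.156% of those it tested), limma with array weights called 567 (3.08%) and edgeR called 0. No member was among these calls. The log2 fold changes of the members ran from -0.65 for Pou3f1 to 0.61 for Nrg1, with a median of 0.10 against 0.06 over all genes tested. Egr2 was lower in every Hdac2 cKO library than in every WT library. It was the only member of 9 whose groups did not overlap, against 8.54% of all genes tested, 3.91% lower and 4.63% higher. Single libraries weigh heavily in these values. Without WT 3, 8 of the 9 members had a negative log2 fold change (51.4% of all genes did), and the median over the members became -0.20 (-0.01 over all genes). Egr2, Sox10 and Nab1 then did not overlap and were lower, 3 of 9 members against 9.63% of all genes lower and 18.8% in either direction. Without both libraries numbered 3, 7 members had a negative log2 fold change (49.5% of all genes). Of these, 5 did not overlap (Egr2, Sox10, Pou3f1, Nab1 and Nab2), against 19.1% of all genes lower and 38.6% in either direction. In that setting limma called 5 genes (0.0272%), none of them a member. The number of members without overlap was 1 without Hdac2 cKO 1 (13.5% of all genes), 2 without Hdac2 cKO 2 (12.8%), 3 without Hdac2 cKO 3 (24.8%), 2 without WT 1 (25.4%) and 2 without WT 2 (15.2%). Egr2 was among them each time, as groups apart in all 6 libraries stay apart in any subset of them. Within same-numbered pairs of libraries, Egr2, Pou3f1 and Nab2 were lower in the Hdac2 cKO library of all 3 pairs, 3 of 9 members against 14.6% of all genes, and with the pair as a block none of them passed (limma adjusted p = 0.674 for Egr2, 0.674 for Pou3f1 and 0.684 for Nab2). For Egr2 the lower value in every pair follows from the same separation. Groups with fewer libraries overlap less often by construction.

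**Figure D1:**
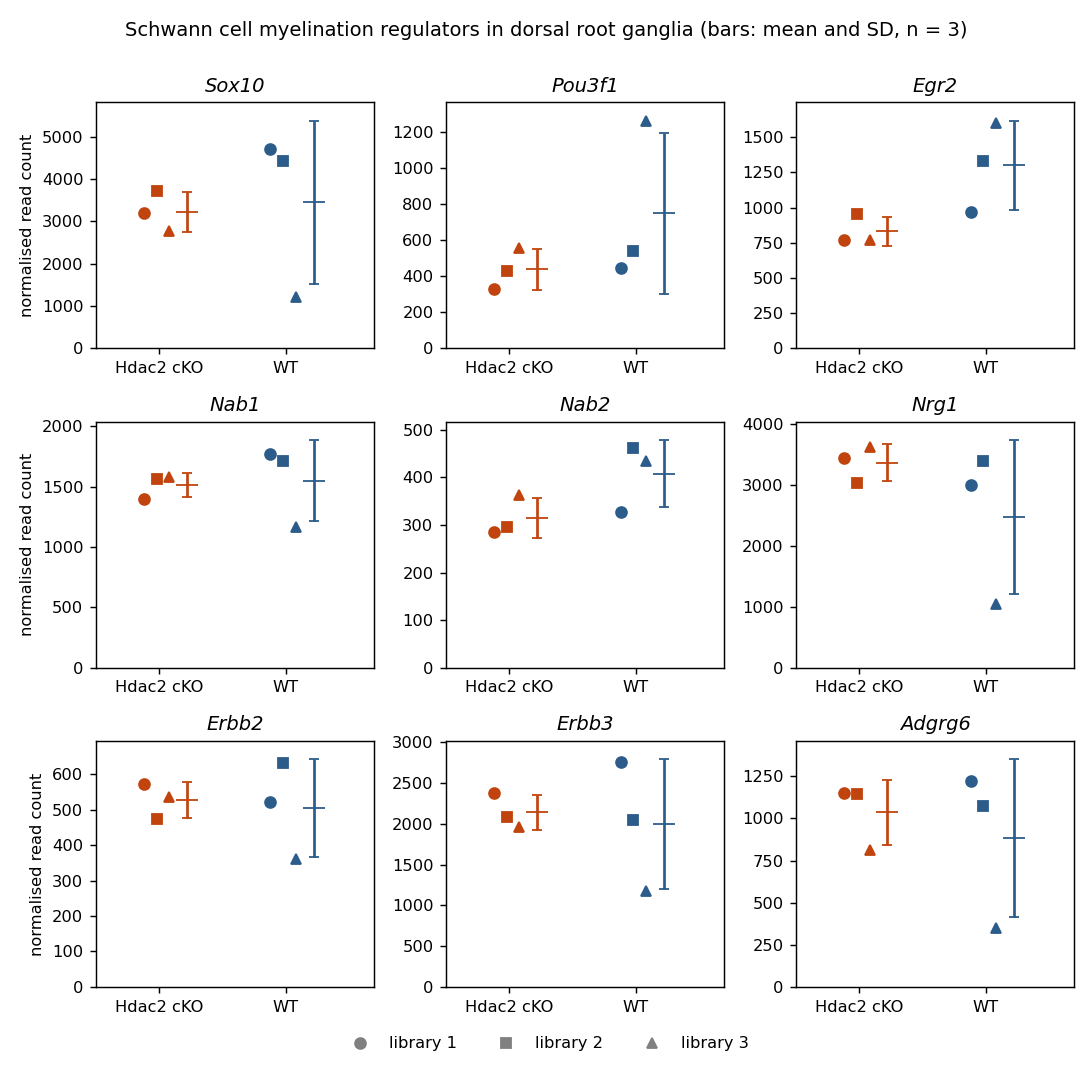
Normalised read counts (y axis, from 0) of the 9 regulators in the 3 Hdac2 cKO and 3 WT libraries; symbols mark the library number and bars the mean and SD. Egr2 sits at 767 to 952 in Hdac2 cKO, below the 968 to 1602 of WT, and the triangle of WT 3 lies far below WT 1 and WT 2 for Sox10, Nrg1 and Adgrg6 and far above them for Pou3f1.

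Sox10 (ENSMUSG00000033006, chromosome 15, 79154908 to 79165240, minus strand), the lineage factor, stood at 3196, 3717 and 2768 in Hdac2 cKO 1, 2 and 3, against 4708, 4424 and 1219 in WT 1, 2 and 3. The knockout libraries thus lay between WT 3 and the other WT libraries. Means were 3227 ± 476 in Hdac2 cKO and 3450.5 ± 1937 in WT (SD, n = 3 each), and the log2 fold change was 0.12 (95% confidence interval -1.07 to 1.31; limma adjusted p = 0.966). Without WT 3 the groups no longer overlapped and the log2 fold change stood at -0.51 (SE 0.17; limma adjusted p = 0.998). Its sign was also negative by edgeR (-0.10) and DESeq2 (-0.10). In a bulk sample, fewer cells of a type and less RNA per cell cannot be told apart.

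Pou3f1 (ENSMUSG00000090125, chromosome 4, 124656807 to 124660655, plus strand), the POU factor of cells about to myelinate, stood at 329, 427 and 557 in Hdac2 cKO 1, 2 and 3. In WT 1, 2 and 3 it stood at 445, 541 and 1264. The groups overlapped, and WT 3 held more than any other library. The log2 fold change stood at -0.65 (SE 0.43; limma adjusted p = 0.927), the most negative of the members, and -0.20 without WT 3. With a correction for GC content it was -0.27. An antisense gene, Gm2164, shares 330 bases of its exons and was near 0 in both groups.

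Egr2 (ENSMUSG00000037868, chromosome 10, 67535475 to 67542188, plus strand), which switches the myelin genes on, stood at 772, 952 and 767 in Hdac2 cKO 1, 2 and 3, against 968, 1334 and 1602 in WT 1, 2 and 3. Hdac2 cKO 2 and WT 1 lay close together, so the separation of the groups was narrow. Means were 830.3 ± 106 in Hdac2 cKO and 1301 ± 318 in WT (SD, n = 3 each), a ratio of means of 0.638. The log2 fold change was -0.62 (SE 0.25), with a 95% confidence interval from -1.21 to -0.04. Tested over all genes it did not pass (limma adjusted p = 0.927), and the exact two-sided permutation test on its log2 values gave p = 0.1, the smallest that 3 against 3 allows. Egr2 kept a negative sign in all 23 alternatives, from -0.82 to -0.41. Leaving out libraries could not reverse that sign, because the groups did not overlap. The Egr2 value was -0.46 without WT 3 and -0.47 with a term for sex read from the Y-linked genes. The libraries with Y-linked reads held the highest Egr2 in each group: 952 in Hdac2 cKO and 1334 and 1602 in WT.

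Egr2 is also an immediate early gene that other cells can induce, so markers of other cells stand beside it. Skeletal muscle markers were lower in 8 of 8 genes, with sums from 120.3 to 1140.1 in Hdac2 cKO and from 1497 to 9151 in WT. Fibroblast markers were lower in 5 of 6, with sums from 16548 to 30938 in Hdac2 cKO and from 30895.5 to 34985 in WT. None of the muscle or fibroblast markers was at 0 in all libraries, and their part in the Egr2 difference was not tested. The related immediate early gene Egr1 was named after its values were seen. It stood at 1214, 2936 and 5232 in Hdac2 cKO against 461, 8301 and 1711 in WT. Whether induction in other cells bears on the Egr2 difference was not tested. Oligodendrocyte markers, which would come from central tissue, summed to 130.1 in Hdac2 cKO 3 and 127.8 in WT 3. In the other libraries they summed to at most 30.9. Mobp stood at 122 in Hdac2 cKO 3 and 65.4 in WT 3. Opalin (28.6), Mog (19.4) and Olig1 (14.3) were highest in WT 3. Olig2, a factor of that lineage, was at 0 in all but WT 1, where it stood at 3.53. The part of these markers in the Egr2 difference was not tested.

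Nab2 (ENSMUSG00000025402, chromosome 10, 127660918 to 127668568, minus strand), an EGR corepressor that EGR proteins themselves induce, stood at 286, 296 and 364 in Hdac2 cKO 1, 2 and 3, against 328, 462 and 435 in WT 1, 2 and 3. Only Hdac2 cKO 3 reached into the WT range. The log2 fold change stood at -0.37 (SE 0.26; limma adjusted p = 0.927), -0.31 without WT 3 and -0.10 with GC correction. Its exons share 151 bases with Nemp1, 40 with Stat6 and 1050 with the antisense gene Gm16229, all on the opposite strand. Gm16229 was at 0 in every library. The strand setting is not given, so reads in these stretches cannot be told apart. Nab2 also lies 0.640 Mb from Avil, the gene whose promoter drives Cre, and Erbb3 lies 1.55 Mb from it; in all, 4 of the 9 members are on chromosome 10, as are Avil and Hdac2. Avil stood at 10125, 9369 and 8201 in Hdac2 cKO, below its 15684, 17149 and 11996 in WT (log2 fold change -0.68, SE 0.21; limma adjusted p = 0.927).

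Nab1 (ENSMUSG00000002881, chromosome 1, 52457294 to 52500679, minus strand), the paralogous corepressor, had the smallest difference of the members. It stood at 1397, 1563 and 1583 in Hdac2 cKO 1, 2 and 3, against 1775, 1715 and 1164 in WT 1, 2 and 3. Its log2 fold change was -0.01 (95% confidence interval -0.55 to 0.53; limma adjusted p = 0.993), an interval that still allows changes of either sign. Without WT 3 every knockout library was below both remaining WT libraries, and the log2 fold change was -0.21.

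Nrg1 (ENSMUSG00000062991, chromosome 8, 31814551 to 32884029, minus strand), the axonal growth factor and the one member made largely by the neurons that carry Cre, stood at 3446, 3028 and 3621 in Hdac2 cKO 1, 2 and 3, against 2989, 3398 and 1036 in WT 1, 2 and 3. The 5 libraries other than WT 3 lay close together. The log2 fold change stood at 0.61 (SE 0.44; limma adjusted p = 0.927), the most positive of the members, but 0.07 (SE 0.16) without WT 3. The pan-neuronal tubulin gene Tubb3 stood at a log2 fold change of -0.01 (SE 0.20), while the sensory neuron markers had a median of -0.08, with 4 of 10 higher. Of these 10 markers, 3 were higher in every Hdac2 cKO library (4.63% of all genes) and 1 was lower in every one (3.91%). The counts pool all Nrg1 transcripts, so the membrane-bound type III form that instructs myelination cannot be told from the soluble forms.

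Erbb3 (ENSMUSG00000018166, chromosome 10, 128567523 to 128589652, minus strand), the neuregulin-binding receptor, stood at 2379, 2084 and 1966 in Hdac2 cKO 1, 2 and 3, against 2764, 2052 and 1177 in WT 1, 2 and 3. The knockout libraries lay inside the WT range, with a log2 fold change of 0.18 (95% confidence interval -0.57 to 0.94; limma adjusted p = 0.934) and of -0.16 without WT 3. Erbb2 (ENSMUSG00000062312, chromosome 11, 98412470 to 98437716, plus strand), its signalling partner, stood at 573, 473 and 537 in Hdac2 cKO against 522, 633 and 359.8 in WT. Its groups overlapped too, with a log2 fold change of 0.10 (95% confidence interval -0.54 to 0.74; limma adjusted p = 0.953) and of -0.13 without WT 3.

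Adgrg6 (ENSMUSG00000039116, chromosome 10, 14402583 to 14545659, minus strand), the receptor that raises cyclic AMP, stood at 1151, 1146 and 812 in Hdac2 cKO 1, 2 and 3, against 1224, 1075 and 351 in WT 1, 2 and 3. Both libraries numbered 3 were the lowest of their groups. The log2 fold change stood at 0.40 (SE 0.48; limma adjusted p = 0.927), -0.16 without WT 3 and 0.0017 without both libraries numbered 3.

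**Figure D2:**
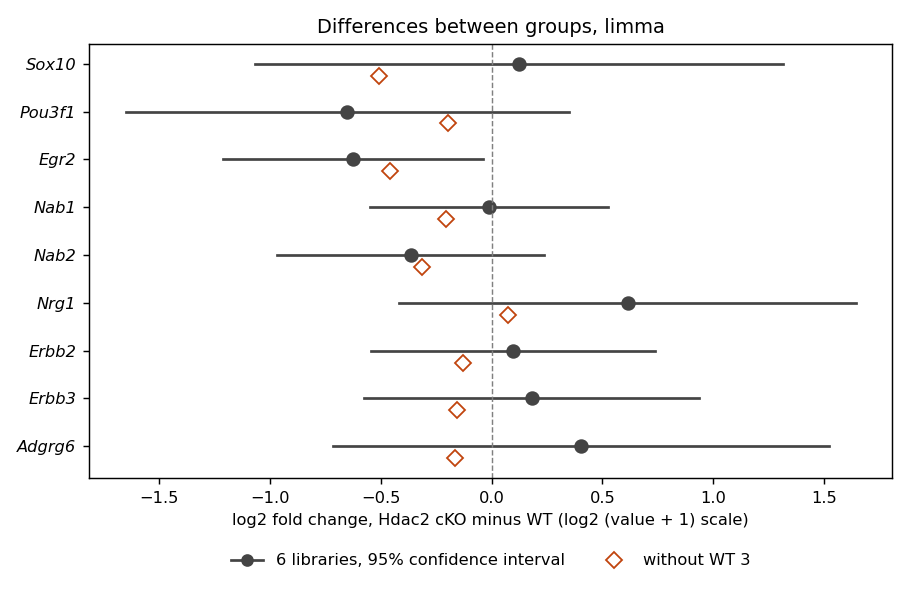
Log2 fold changes of the 9 regulators (x axis, Hdac2 cKO minus WT, log2 (value + 1) scale), with filled points and 95% confidence intervals for all 6 libraries and open diamonds without WT 3. The Egr2 interval alone lies below 0, from -1.21 to -0.04, and Sox10, Erbb2, Erbb3 and Adgrg6 change sign when WT 3 is left out.

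Within each group the spread of the members was uneven. Coefficients of variation ran from 6.72% (Nab1) to 26.1% (Pou3f1) in Hdac2 cKO and from 17.3% (Nab2) to 59.8% (Pou3f1) in WT. Every member varied more among the WT libraries than among the knockout libraries. On the log2 scale WT 3 minus the mean of WT 1 and WT 2 was -1.90 for Sox10, -1.71 for Adgrg6, -1.62 for Nrg1 and -1.02 for Erbb3. In the same library Pou3f1 was 2.58 times and Egr2 1.41 times that mean. Over all genes the same difference had a median size of 0.80.

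**Figure D3:**
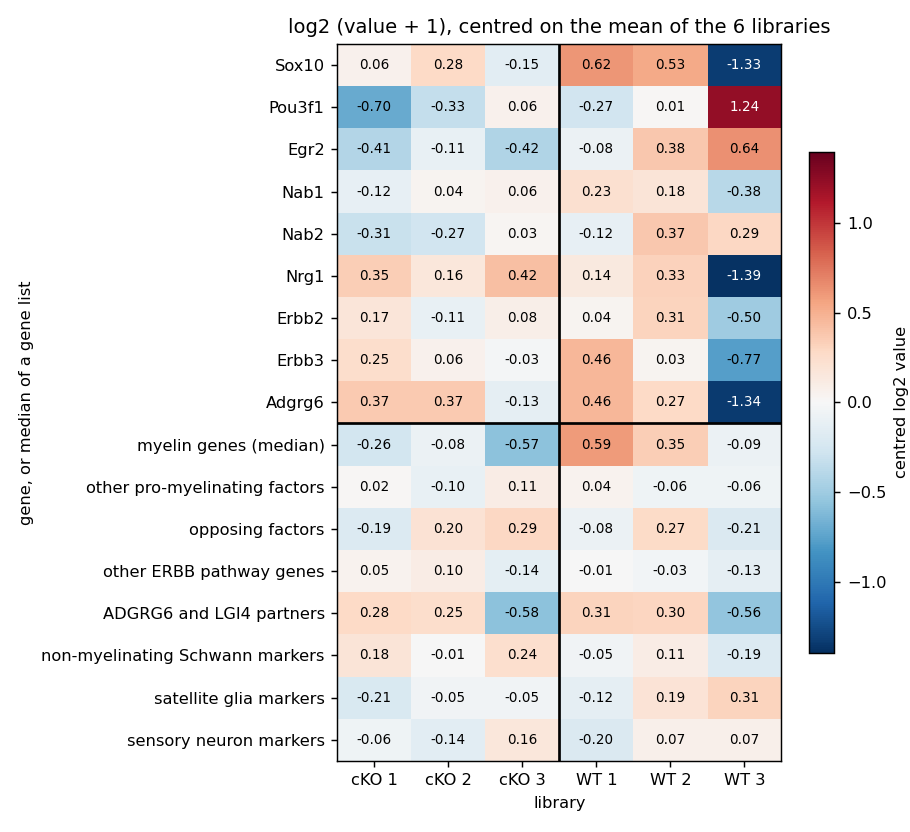
Log2 (value + 1) values centred on the mean of the 6 libraries (colour scale and printed numbers), for the 9 regulators (upper block) and the medians of gene lists (lower block), with Hdac2 cKO libraries left of the line and WT libraries right of it. WT 3 stands at -1.33 for Sox10, -1.34 for Adgrg6 and -1.39 for Nrg1 but at 1.24 for Pou3f1, and the myelin median is negative in all 3 Hdac2 cKO libraries and, at -0.086, in WT 3.

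Ratios of a pair of genes within a library do not move with the library's scaling. The log2 ratio of Egr2 over Sox10 was -2.05, -1.96 and -1.85 in Hdac2 cKO 1, 2 and 3, against -2.28, -1.73 and 0.39 in WT 1, 2 and 3. Libraries of both groups other than WT 3 thus overlapped. The mean difference was -0.75 (exact two-sided permutation p = 0.6), and 0.05 without WT 3. Nrg1 over Tubb3 was -4.21, -4.37 and -4.34 in Hdac2 cKO, against -4.27, -4.41 and -6.10 in WT. Its mean difference of 0.62 (exact two-sided permutation p = 0.4) was 0.04 without WT 3. Nab2 over Egr2 differed by 0.26, Erbb3 over Sox10 by 0.06 and Erbb2 over Erbb3 by -0.09 between the groups, with exact two-sided permutation p of 0.4, 1 and 0.8. Nab2 over Egr2 was 0.098 without Hdac2 cKO 3, 0.15 without WT 3 and 0.40 without Hdac2 cKO 2. None of the 5 ratios given passed after Benjamini-Hochberg adjustment (adjusted p = 1 for each), and 3 against 3 libraries cannot give an unadjusted p under 0.1.

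**Figure D4:**
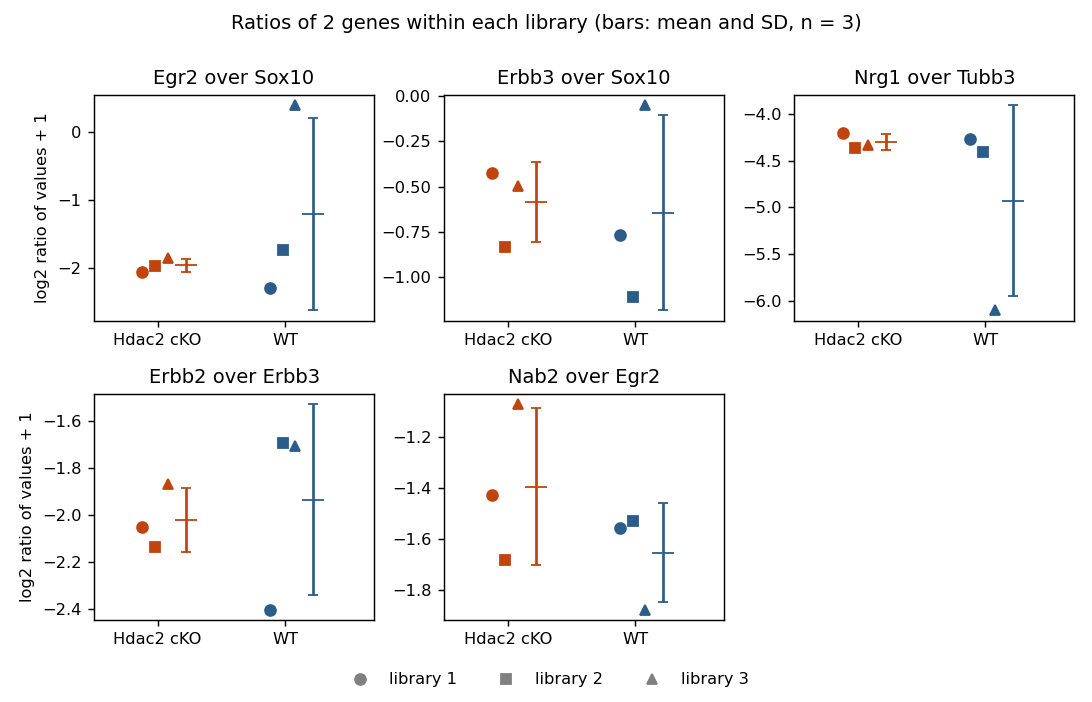
Log2 ratios of values + 1 (y axis) for 5 gene pairs within each library, Hdac2 cKO left and WT right, with library numbers as symbols and bars for the mean and SD. For Egr2 over Sox10, 5 libraries lie between -2.28 and -1.73 and WT 3 at 0.39; for Nrg1 over Tubb3, 5 lie between -4.41 and -4.21 and WT 3 at -6.10.

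EGR2 and SOX10 switch on many genes of peripheral myelin. Of 18 peripheral myelin genes tested, 16 had a negative log2 fold change, with a median of -0.60, against 44.7% of all genes tested. Of these 18, 7 were lower in every Hdac2 cKO library (3.91% of all genes were), and none passed limma's test; DESeq2 called 1, Mag (adjusted p = 0.0245). Mag, an adhesion protein of the inner myelin wrap, stood at 921, 779 and 791 in Hdac2 cKO against 1381, 1535 and 1481 in WT. Pmp22, a compact myelin protein, had a log2 fold change of -0.89 (SE 0.25; limma adjusted p = 0.927). This lower level of myelin genes was known when the 9 regulators were chosen. The exceptions were Drp2, of the dystroglycan complex on the outer myelin surface, at 0.20 (SE 0.36), and Gldn, gliomedin of the node of Ranvier, at 0.13 (SE 0.55). Both were negative without WT 3, Drp2 at -0.17 and Gldn at -0.48, and the list median was then -0.73.

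Markers of non-myelinating Schwann cells had 5 of 6 genes higher, against 10185 of all 18410 genes tested. Their sums ran from 46148 to 50863 in Hdac2 cKO and from 39599.5 to 44567 in WT. The median log2 fold change of these markers was 0.33, and 0.12 without WT 3. Only 1 of the 6 was higher in every Hdac2 cKO library (4.63% of all genes were), and none was called. The cells that these transcripts came from cannot be told from bulk values of whole ganglia. Satellite glia markers had 6 of 8 lower, with overlapping sums of 125648 to 153192 in Hdac2 cKO and 149994 to 276057 in WT. Endothelial and macrophage markers each had 3 of 6 higher, with overlapping sums.

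The rest of the pathway showed no called gene in either direction. Among 13 other factors of the myelination programme, 6 were higher and 7 lower (median log2 fold change -0.05). The 2 higher genes with the smallest p were Rxrg, a retinoid receptor, at 0.32 (SE 0.26), and Zeb2, a repressor of inhibitors of myelination, at 0.26 (SE 0.26). The 2 lower ones were Nfatc4, a calcineurin-dependent partner of SOX10, at -0.38 (SE 0.33), and Tead1, the DNA-binding partner of YAP and TAZ, at -0.25 (SE 0.22). Without WT 3 these values were 0.12 for Rxrg, 0.074 for Zeb2, -0.20 for Nfatc4 and -0.085 for Tead1. The most negative value of the list was that of Tcf7l2, a Wnt pathway factor, at -0.55 (SE 0.50). Of 9 factors of immature or repair Schwann cells 8 were tested, and 5 were higher, with a median of 0.35 that was 0.06 without WT 3. In that list Runx2, a factor of repair cells, stood at 235, 215 and 223 in Hdac2 cKO against 192, 127 and 189 in WT. Its groups did not overlap, with a log2 fold change of 0.43 (SE 0.30; limma adjusted p = 0.927). Jun, the master factor of the repair state, showed a log2 fold change of -0.20 (SE 0.43), Sox2 one of -0.17 (SE 0.28) and Hey2, a Notch target, one of 0.32 (SE 0.26). Without WT 3 the values were -0.046 for Jun, -0.097 for Sox2 and 0.15 for Hey2.

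Of 20 other ERBB pathway genes 7 were higher and 13 lower (median log2 fold change -0.04). Bace1, the protease that cuts and activates neuregulin 1, stood at 3241, 3109 and 3093 in Hdac2 cKO against 2977, 2987 and 1511 in WT. Its groups did not overlap, but the log2 fold change of 0.40 (SE 0.30) was 0.08 without WT 3. Shc1, an adaptor of the receptors, had one of 0.43 (SE 0.23), Mapk3, the kinase ERK1, one of -0.26 (SE 0.20) and Nrg4 one of -0.44 (SE 0.52). Without WT 3, Nrg4 was at 0.047, Shc1 at 0.26 and Mapk3 at -0.15. Of 17 ligands and partners of ADGRG6 and of the LGI4 signal, 9 were higher and 8 lower, with a median of 0.023 that was -0.28 without WT 3. Lamb1, a laminin chain of the Schwann cell basal lamina, was lower in every Hdac2 cKO library, at 2767, 2420 and 2235, against 4135, 3261 and 3959 in WT. Lamb1 had -0.61 on the log2 scale (SE 0.20; limma adjusted p = 0.927) and -0.58 without WT 3. Col4a2, a chain of collagen IV, had one of -0.50 (SE 0.25), Adam22, the LGI4 receptor, one of 0.50 (SE 0.31; 0.20 without WT 3) and Creb1, a factor activated through cyclic AMP, one of 0.31 (SE 0.20).

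Per length, as mean normalised read count per kilobase of annotated exon, Sox10 was the most abundant member in both groups, at 1058 in Hdac2 cKO and 1131 in WT. In Hdac2 cKO there followed Nab1 at 369, Erbb3 at 356, Nrg1 at 325, Egr2 at 244, Pou3f1 at 114, Nab2 at 107, Erbb2 at 101 and Adgrg6 at 84.7. In WT the order was Egr2 at 383, Nab1 at 378, Erbb3 at 332, Nrg1 at 239, Pou3f1 at 195, Nab2 at 139, Erbb2 at 96.9 and Adgrg6 at 72.2. In WT every pair of neighbours overlapped between libraries. In Hdac2 cKO all overlapped except Sox10 with Nab1, Nrg1 with Egr2 and Egr2 with Pou3f1. In WT 3 Egr2 (471 per kilobase) exceeded Sox10 (400 per kilobase). Exon length takes in all annotated isoforms, so the long genes Nrg1 and Adgrg6 may be understated.

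By the root mean square difference of centred log2 values over the 6 libraries, the members most alike were Nab1 and Erbb2 (0.17), Sox10 and Adgrg6 (0.18) and Egr2 and Nab2 (0.25). Among 13031 other tested genes with a mean of at least 100, those nearest to Egr2 were Mreg (0.08), Slx1b (0.08) and Il17d (0.10), and those nearest to Erbb3 were Ankrd34c (0.04), Asxl1 (0.06) and Hpse (0.06). With so many candidates and 6 libraries, small differences of this kind are a description only.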

How the data were processed

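RNA was sequenced from dorsal root ganglia in 6 libraries, grouped and numbered by their sample titles. Columns were matched to samples by name. The deposited signal of a gene was its reads over the size factor of the library; HISAT2, SAMtools, featureCounts and DESeq2 with mm10 are named in the submitters' processing notes, but neither versions nor annotation nor strand setting is given there. With the smallest value above 0 in a column taken as 1 read, 100% of values were whole reads to within 0.01. GENCODE M21 (GRCm38) matched 54495 of 54532 identifiers. P-values reflect only how far these libraries differ, which may be technical.

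The test was limma 3.58.1 (R 4.3.3) with trended, robust variances on log2 (value + 1), for genes reaching 10 in 3 or more libraries. Members and gene lists were chosen with earlier results of these data known. Named genes were the 9 members, Hdac2, Avil, ratio partners, the likeness search and, per pathway list, the 2 higher and 2 lower genes with the smallest p; Egr1 and Tcf7l2 were chosen after their values were seen. Alternatives were edgeR 4.0.16 and DESeq2 1.42.0 on recovered reads, 2 scalings, 2 filters, pseudocounts, a replicate block, length, GC and sex corrections, array weights, and omitted libraries. Deviations from group means correlated by 0.40, 0.15 and 0.42 between libraries numbered 1, 2 and 3. All exceeded 0.1, so the numbers were taken to pair libraries. This comes from the data, not the labels, and Hdac2 cKO 2 correlated more with WT 1 (0.34) than with WT 2. The main fits, intervals and exact tests leave the pairing out, and the replicate block was an alternative. No replicates were alike within sampling noise (chi-square per gene at least 17.3). The scripts were tested on simulated data. Promoter windows came from RefSeq (GRCm38.p6) for 5 of the 9 members. A further ratio, with its gene, is not reported here.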

Additional observations from a re-analysis of the deposited data

How the results depend on the processing

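No member was called under any of the 23 alternatives. Egr2, Pou3f1 and Nab2 kept a negative log2 fold change in all of them; Sox10 kept its sign in 17, Nab1 and Erbb2 in 20, Erbb3 in 21, and Nrg1 and Adgrg6 in 22. The replicate block, alone or with gene length or GC correction, changed no call and no direction (Egr2 -0.62 with the block alone, limma adjusted p = 0.674). The block itself cannot move a fold change, since each block held 1 library of each group. The log2 fold change of Sox10 was -0.10 by edgeR with RLE or TMM scaling and by DESeq2, -0.33 with array weights and -0.40 without both libraries numbered 3. Array weights also gave -0.25 for Erbb2 and -0.020 for Nrg1, and weighed WT 3 at 0.101 and WT 2 at 4.17. Over the 23 alternatives the adjusted p of Egr2 ran from 0.0574 (limma with array weights) to 0.9999 (limma without Hdac2 cKO 2). Limma with array weights gave Nab2 an adjusted p of 0.0668. Without both libraries numbered 3, Erbb2 was at -0.14 and Erbb3 at -0.10, Nab2 over Egr2 differed by -0.013, and 5 members did not overlap (38.6% of all genes). The median over members was -0.048 by edgeR with RLE scaling, -0.051 with TMM scaling, -0.048 by DESeq2, -0.25 with array weights and -0.24 without both libraries numbered 3. Over all genes DESeq2 called 28, array weights 567 (3.08%) and omission of both libraries numbered 3 called 5. The cause was not tested.

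Leaving out 1 library in turn gave these ranges of log2 fold change: -0.51 to 0.46 for Sox10, -0.21 to 0.10 for Nab1, -0.13 to 0.28 for Erbb2, -0.16 to 0.46 for Erbb3, -0.16 to 0.74 for Adgrg6 and -0.20 to 0.24 for the member median. From 1 to 3 members did not overlap, against 12.8 to 25.4% of all genes. Differences of log2 ratios ranged from -1.29 to 0.051 for Egr2 over Sox10, from -0.175 to 0.35 for Erbb3 over Sox10, from -0.32 to 0.034 for Erbb2 over Erbb3 and from 0.098 to 0.40 for Nab2 over Egr2. A fit with 2 libraries in a group assumes that they vary like the other group. Reads per member ran from 283 to 5336, and the part of counting error in the spread between libraries was not measured.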
